A study of Mus musculus with 15 samples.

Results

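The genes described here are 10 that build the contacts between hepatocytes, taken by symbol from the count table: the claudins Cldn1, Cldn2, Cldn3 and Cldn12, occludin (Ocln) and Tjp1 of the tight junction, the cadherins Cdh1 and Cdh2, and the connexins Gjb1 and Gjb2. They are 10 of the 55984 genes listed. Of these 10 genes, 9 passed the filter on low counts and were tested, while Cldn3 had 0 counts in all libraries. Between hepatocytes of the 2n-whole and 4n-whole populations, Cdh1 was lower and Cldn2 was higher in the tetraploid cells, in 4 of 4 mice each. The other cadherin, Cdh2, and both connexins were not called in any comparison.

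All mice were adult males of the C57BL/6JJcl strain and WT genotype, and the labels name no agent given to any group. Hepatocytes isolated by liver perfusion were stained with the DNA dye Hoechst and sorted by flow cytometry, and the RNA of each sorted population was sequenced. The 2n-whole population is the diploid gate and the 4n-whole population the tetraploid gate, and the latter was also divided by the peak height of the Hoechst signal. The 4n-top population (higher peak) is enriched in cells with a single tetraploid nucleus, and the 4n-bottom population (lower peak) in cells with a pair of diploid nuclei. The 4n-top cells were sorted in a single round and are therefore not a pure population of mononucleated cells. There were 4 mice for 2n-whole, 4n-whole and 4n-bottom and 3 mice for 4n-top. The study excluded its 4n-top library of mouse 1 for poor RNA quality. The 15 libraries had total counts from 22049498 to 42096421. At this depth 3 counts, taken as the lowest detectable level, correspond to 0.0693 to 0.12 CPM (counts scaled to a common library total, after TMM normalization), a limit that covers counting error only. The limit takes each count as independent, although most counts from 1 to 10 were even in every library.

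Hepatocytes are polarised cells whose tight junctions seal the bile canaliculus, whose adherens junctions hold neighbouring cells together through cadherins, and whose gap junctions pass ions and small metabolites from cell to cell. Claudins form the strands of the tight junction, and their mix sets which ions and how much water can pass, with claudin-2 forming a pore for cations and water. Hepatocytes are unusual among epithelial cells in carrying both E-cadherin (Cdh1) and N-cadherin (Cdh2), and along the liver lobule E-cadherin is known as a periportal protein, while claudin-2 increases towards the central vein.

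The label hepatocyte was checked with 6 marker genes (Alb, Ttr, Apoa1, Fabp1, Hnf4a and Serpina1a), which summed to between 64466 and 90928 CPM per library. The 7 cholangiocyte markers, which matter here because bile duct cells also have junctions rich in Cdh1, summed to 34.7 to 47.4 CPM in 2n-whole, 16.6 to 31.2 CPM in 4n-whole, 21.3 to 30.6 CPM in 4n-bottom and 17.8 to 32.0 CPM in 4n-top. Most of this sum came from Sox9 (mean 24.1 CPM) and Spp1 (mean 3.94 CPM), while the means of the defining duct markers were 0.272 CPM for Krt19, 0.148 CPM for Epcam and 0.0951 CPM for Krt7. These low values were highest in 2n-whole, with means of 0.717, 0.413 and 0.265 CPM in that order. The means of the other populations were at most 0.224, 0.142 and 0.0919 CPM. The Kupffer cell list had a median sum of 3.62 CPM in 2n-whole (0.468 to 6.38), 0.747 in 4n-whole (0.257 to 1.28), 0.792 in 4n-bottom (0.0623 to 2.76) and 0.488 in 4n-top (0.391 to 0.554). In the same order the medians of the endothelial list were 11.3, 9.14, 7.56 and 6.06 CPM, those of the stellate cell list 3.60, 2.97, 2.78 and 2.84 CPM, and those of the leukocyte list 0.557, 0.124, 0.261 and 0 CPM. The medians of all 4 lists were thus highest in 2n-whole, and their part in the results was not tested. The erythroid sum came almost wholly from Alas2 (75.0 CPM), with Hba-a1 at 0.151 CPM.

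To compare the genes with each other, CPM was divided by the exon length of each gene. Over the 15 libraries Gjb2 had the highest level, with 89.3 ± 8.48 CPM per kb (mean ± SD), followed by Gjb1 with 71.6 ± 6.36 and Cdh1 with 44.7 ± 15.8 CPM per kb. Cldn1 reached 15.7 ± 4.27 CPM per kb and Cdh2 11.6 ± 1.21 CPM per kb, and the spreads of these neighbours overlapped. Tjp1 followed with 8.05 ± 0.786 CPM per kb. The lowest levels were those of Cldn2 (5.10 ± 2.72 CPM per kb), Cldn12 (4.34 ± 0.432 CPM per kb) and Ocln (2.57 ± 1.03 CPM per kb). The wide spread of Cldn2 overlapped those of Tjp1, Cldn12 and Ocln, while the SDs of Cldn12 and Ocln did not overlap. The place of Cldn2 in this order depended on the population. In 2n-whole it was the lowest of the 9 genes, with 2.31 ± 1.17 CPM per kb (n = 4), below Ocln with 3.13 ± 1.29. In 4n-whole it reached 7.35 ± 3.04 CPM per kb (n = 4), beside Tjp1 with 7.72 ± 1.04.

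**Figure D1:**
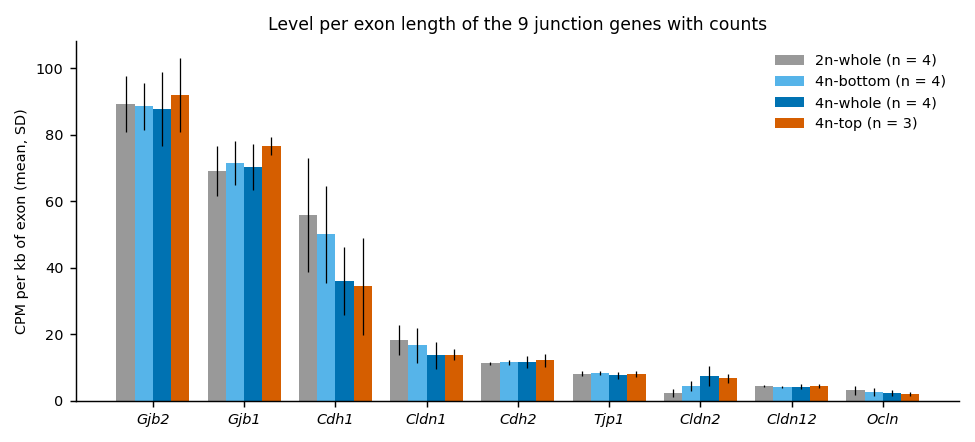
Level of the 9 junction genes with counts, in CPM per kb of exon, with bars for the mean and lines for the SD of each population (3 or 4 mice). The connexins Gjb2 and Gjb1 stood highest, the bars of Cdh1 were lower in 4n-whole (35.9) and 4n-top (34.4) than in 2n-whole (55.96), and those of Cldn2 were higher.

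Cdh1 encodes E-cadherin, which binds E-cadherin on the neighbouring cell and is anchored to actin through catenins. The gene lies on chromosome 8 (107329941-107396880, plus strand, GRCm39) and no other annotated gene overlaps its exons. In 2n-whole, Cdh1 had 343 CPM in mouse 1, 261 CPM in mouse 2, 153 CPM in mouse 3 and 281 CPM in mouse 4. In 4n-whole, the values of mice 1 to 4 were 223, 182, 112 and 149 CPM. In 4n-bottom they were 294, 264, 138 and 234 CPM, and in 4n-top 234, 100.5 and 144 CPM for mice 2, 3 and 4. Mouse 3 was lowest in all 4 populations, and mouse 1 was highest wherever it was measured, so that the CPM ranges of every pair of populations overlapped. Within a population, Cdh1 differed 1.99-fold to 2.33-fold between the highest and the lowest mouse. The difference between populations was therefore read within each mouse, with the mouse as a block in the model.

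With edgeR, Cdh1 was 1.55-fold lower in 4n-whole than in 2n-whole (log2 fold change -0.63, SE 0.10, adjusted p = 2.5e-04). The within-mouse log2 differences lay between -0.92 and -0.44. In 4n-top, Cdh1 was 1.49-fold lower than in the same 2n-whole libraries (-0.58, SE 0.11, adjusted p = 0.0042), and lower in 3 of 3 mice. In 4n-bottom it was lower in 3 of 4 mice, but the difference did not pass the test (-0.16, 95% interval -0.37 to 0.05, adjusted p = 0.627). Between the tetraploid fractions, Cdh1 had a log2 difference of -0.42 in 4n-top against 4n-bottom (95% interval -0.65 to -0.19), was lower in 3 of 3 mice, and did not pass after adjustment over all genes (unadjusted p = 9.8e-04, adjusted p = 0.907). Without the mouse block, both calls of Cdh1 were lost, at adjusted p = 0.385 for 4n-whole and 0.618 for 4n-top, with log2 fold changes of -0.64 and -0.70. Leaving out mouse 4 ended the call in 4n-top against 2n-whole (-0.42, adjusted p = 0.381), and leaving out mouse 2 brought the 4n-top against 4n-bottom difference past both thresholds (-0.57, adjusted p = 0.0181). Each of these omissions also takes away a library from the 3 of 4n-top. Mouse 2 had the smallest difference between 4n-top and 4n-bottom (-0.18), so that leaving it out enlarges the estimate. Over all genes, 29 were called there without mouse 2, against 2 with every mouse.

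In bulk RNA, fewer cells that express Cdh1 and a smaller share of Cdh1 in the RNA of each cell cannot be told apart. CPM is a share of each library, so amounts of RNA per cell cannot be read from it. Among the cholangiocyte markers, 2 of the 4 tested were also lower in 4n-whole than in 2n-whole, Sox9 by a log2 fold change of -0.62 (adjusted p = 0.0023) and Spp1 by -2.81 (adjusted p = 2.0e-05). The duct keratin gene Krt19 had at most 1.33 CPM in any library, a value of 2n-whole. The part of bile duct cells in the Cdh1 difference was not tested.

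Cdh2, on chromosome 18 (16700793-16942381, minus strand), encodes N-cadherin, the second classical cadherin of the hepatocyte. It varied little, with 97.8 ± 3.61 CPM in 2n-whole (n = 4), 102 ± 16.0 CPM in 4n-whole (n = 4), 100.03 ± 6.81 CPM in 4n-bottom (n = 4) and 105 ± 16.1 CPM in 4n-top (n = 3). The log2 fold change of Cdh2 in 4n-whole against 2n-whole was 0.05, with a 95% interval from -0.16 to 0.26. For 4n-top against 4n-bottom it was 0.09, from -0.14 to 0.32. These intervals leave room for small differences in either direction. The ratio of Cdh1 to Cdh2 per kb of exon was 4.97 ± 1.59 in 2n-whole, 4.34 ± 1.25 in 4n-bottom, 3.09 ± 0.821 in 4n-whole and 2.99 ± 1.61 in 4n-top. It lay above 1 in every library, with the lowest value, 1.53, in 4n-top of mouse 3 and the highest, 6.85, in 2n-whole of mouse 1.

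Of the claudins, Cldn2 was the one called between populations. It lies on the X chromosome (138701480-138712135, plus strand), and no other annotated gene overlaps its exons. In 2n-whole, Cldn2 had 8.18, 13.3, 3.76 and 6.49 CPM in mice 1 to 4. In 4n-bottom these mice had 19.1, 15.5, 7.98 and 18.4 CPM, and in 4n-whole 34.7, 19.8, 13.3 and 33.3 CPM. In 4n-top, mice 2, 3 and 4 had 22.2, 18.5 and 28.4 CPM. Mouse 3 was lowest in each population, as for Cdh1. The 4n-top and 2n-whole ranges were apart, whereas those of 4n-whole and 2n-whole overlapped narrowly through mouse 3 of 4n-whole and mouse 2 of 2n-whole.

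As a share of the library, Cldn2 was 3.16-fold higher in 4n-whole than in 2n-whole (log2 fold change 1.66, SE 0.21, adjusted p = 5.3e-06). In 4n-top the difference from 2n-whole was 3.31-fold (1.72, SE 0.22, adjusted p = 1.7e-05), and in 4n-bottom 1.91-fold (0.94, SE 0.20, adjusted p = 0.0252). Cldn2 was higher than in 2n-whole in 4 of 4 mice for 4n-whole and 4n-bottom and in 3 of 3 mice for 4n-top, with mouse 2 showing the smallest difference each time. These comparisons share the 2n-whole libraries and are not independent of each other. Between 4n-top and 4n-bottom, Cldn2 was higher in 3 of 3 mice by a log2 fold change of 0.79 (95% interval 0.34 to 1.23), which did not pass after adjustment (unadjusted p = 0.0011, adjusted p = 0.907). It was called there by 4 of the 10 alternatives. DESeq2 with the mouse block, which called 3003 genes in this comparison, gave 0.79 with an adjusted p of 0.0312, edgeR without the filter on low counts 0.79 (0.0022), edgeR on the libraries of these 2 populations alone 0.77 (0.026) and edgeR without mouse 2 0.93 (0.0073). Mouse 2 had the smallest difference there (0.52), and without it edgeR called 29 genes in all, against 2 with every mouse. Cldn2 was not called with DESeq2 after ComBat-seq (0.81, adjusted p = 0.154), with DESeq2 size factors (0.79, adjusted p = 0.840), without the mouse block (0.60, adjusted p = 1) or without mouse 1, 3 or 4 (0.56 to 0.86, adjusted p = 1). Without the mouse block the calls of Cldn2 in 4n-bottom (adjusted p = 0.895) and 4n-top (0.141) against 2n-whole were lost, and that in 4n-whole remained (1.67, adjusted p = 0.0497). The call in 4n-bottom was also lost without mouse 1 (0.84, adjusted p = 0.203) and without mouse 4 (0.76, adjusted p = 0.255).

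**Figure D2:**
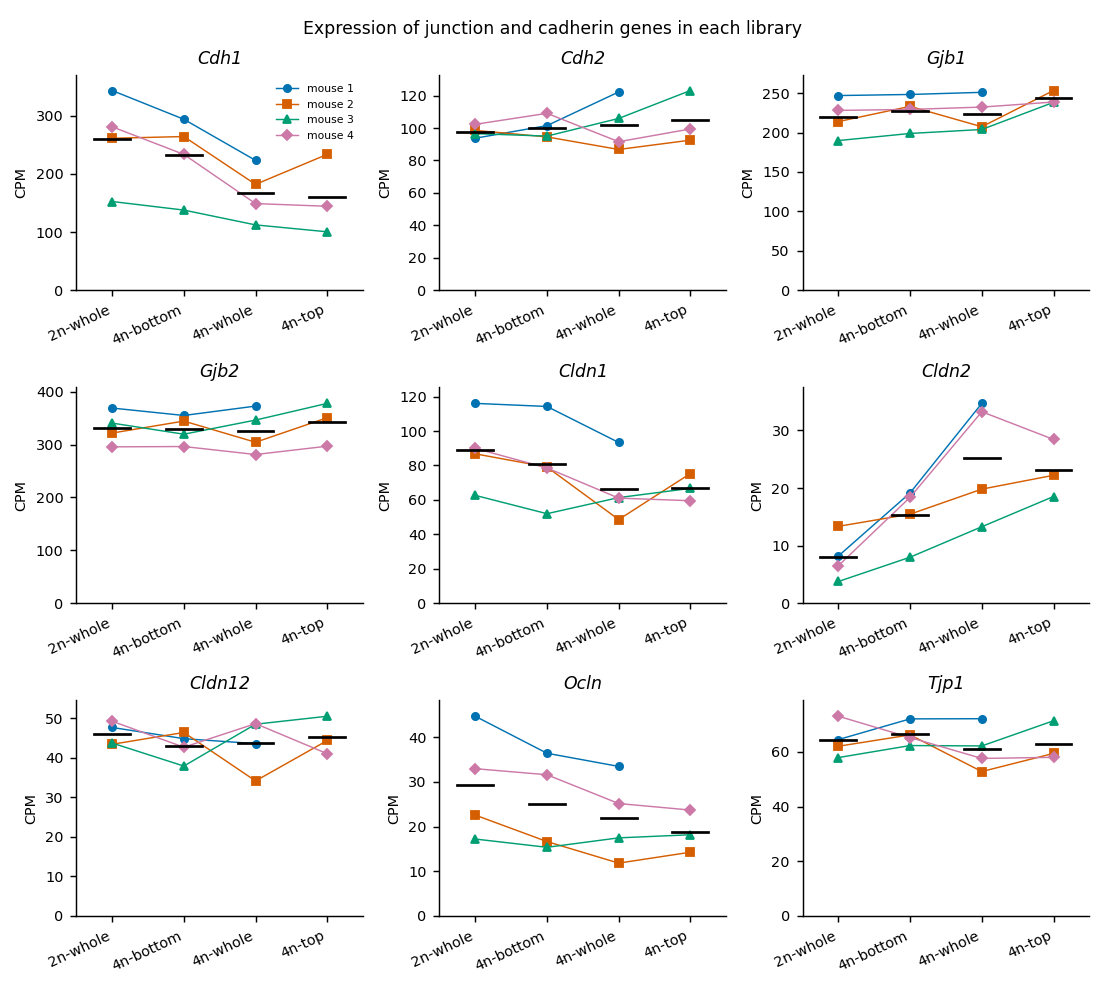
CPM of 9 junction and cadherin genes in each of 15 libraries, with a line for each mouse and a black bar for the mean of the population (every axis starts at 0). For Cdh1 each mouse was lower in 4n-whole than in 2n-whole, and for Cldn2 each mouse was higher, while the connexins and Cdh2 stayed within 1.41-fold between mice in every population.

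The windows before the transcription starts of Cdh1 and Cldn2, the genes that were called, are shown because promoter letters were compared between them. The Cdh1 window is chr8:107329733-107329940 and the Cldn2 window chrX:138701230-138701479, both on the plus strand of GRCm39. For Cdh1, 42 bases next to the start were left out because they lie inside an annotated transcript of the gene. Capitals mark the E-box (CAGGTG, on either strand), the letters bound by Snail and Zeb repressors, and the CCAAT box.
Cdh1: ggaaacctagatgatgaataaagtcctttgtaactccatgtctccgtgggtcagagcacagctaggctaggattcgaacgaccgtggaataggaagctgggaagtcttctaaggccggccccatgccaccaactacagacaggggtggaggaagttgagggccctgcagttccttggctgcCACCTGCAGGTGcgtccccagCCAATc
Cldn2: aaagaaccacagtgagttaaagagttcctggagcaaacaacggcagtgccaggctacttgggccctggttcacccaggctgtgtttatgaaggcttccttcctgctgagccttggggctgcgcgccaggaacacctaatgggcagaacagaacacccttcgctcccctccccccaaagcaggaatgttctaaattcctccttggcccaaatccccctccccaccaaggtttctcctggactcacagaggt
In the Cdh1 window, 2 E-boxes abut as a single palindrome starting 69 and 63 bases before the start, and another match, at 13 bases, lies in the bases left out. The CCAAT box lies 48 bases before the start, and a GC box (GGGCGG) at 31 bases falls in the part not shown. The Cldn2 window held no match to these motifs, and neither window held the letters bound by TCF and LEF factors (CTTTGAT). No window of the other members held the TCF letters either. The window of Cdh2, which was not called, also held an E-box (at 209 bases), a CCAAT box (at 61 bases) and 6 GC boxes. Of 21770 promoter windows of 250 bases, searched on both strands, the E-box was found in 17.7%, the CCAAT box in 36.5%, the GC box in 36.3% and the TCF motif in 2.86%. These are matches of letters and not measured sites.

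Cldn1, on chromosome 16 (26175392-26190596, minus strand), encodes a claudin that seals the space between cells. It had 116, 86.7, 62.6 and 89.9 CPM in mice 1 to 4 of 2n-whole, and 93.3, 48.5, 61.3 and 61.0 CPM in 4n-whole. In 4n-bottom the values were 114, 79.1, 52.0 and 78.5 CPM, and in 4n-top, mice 2 to 4, 75.3, 66.7 and 59.5 CPM. Mouse 1 was highest wherever it was measured, and all ranges overlapped. Cldn1 was lower in 4n-whole than in 2n-whole in 4 of 4 mice (log2 fold change -0.43, SE 0.12, adjusted p = 0.0378), which passed the limit on p but not the limit of 0.5 on the log2 fold change. The smallest within-mouse difference was that of mouse 3 (-0.03), so that leaving out mouse 3 enlarged the fold change, to -0.56 (adjusted p = 0.0025). The largest was that of mouse 2 (-0.84), and leaving out each mouse in turn gave -0.56 to -0.31. Over the 10 alternatives the adjusted p of Cldn1 ran from 0.0025 to 0.473. Without mouse 3, 5.53% of all genes were called in this comparison, against 3.47% with every mouse. Against 2n-whole the log2 fold change was -0.15 in 4n-bottom (95% interval -0.40 to 0.10) and -0.21 in 4n-top (-0.48 to 0.07).

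The mix of claudin RNA was compared within each library. Per kb of exon, Cldn2 made up 9.02% ± 4.01 of the sum of Cldn1, Cldn2 and Cldn12 in 2n-whole (n = 4), 17.3% ± 2.87 in 4n-bottom (n = 4), 28.5% ± 7.42 in 4n-whole (n = 4) and 26.9% ± 6.01 in 4n-top (n = 3). The lowest share in 4n-whole, 18.2% in mouse 3, was above the highest in 2n-whole, 14.9% in mouse 2. Cldn12, a claudin on chromosome 5 (5539537-5564995, minus strand), had 46.0 ± 2.89 CPM in 2n-whole and 43.7 ± 6.79 CPM in 4n-whole (n = 4 each). Its log2 fold change between them was -0.08, with a 95% interval from -0.31 to 0.16.

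**Figure D3:**
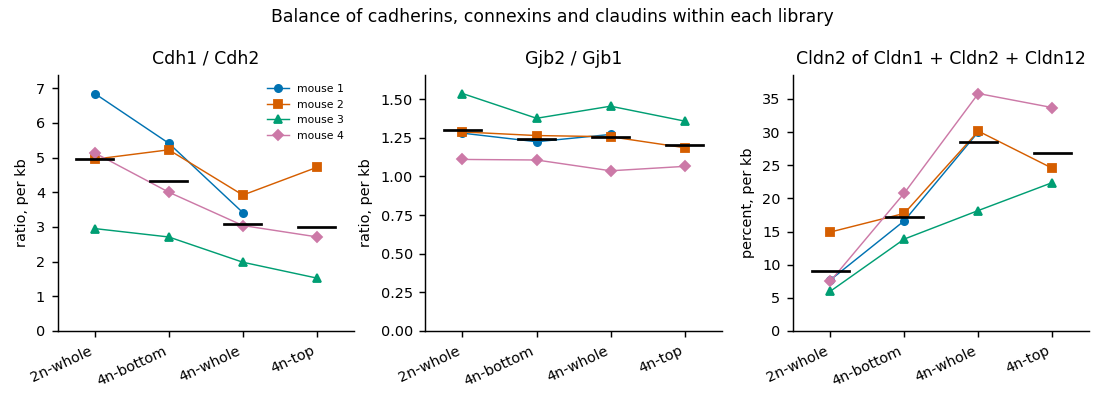
Balance of junction genes in each library, per kb of exon, with a line for each mouse and a black bar for the mean of the population. The ratio of Cdh1 to Cdh2 (left) had a mean of 4.97 in 2n-whole and 3.09 in 4n-whole, that of Gjb2 to Gjb1 (centre) lay between 1.04 and 1.54 in all libraries, and the share of Cldn2 among 3 claudins (right, in percent) had a mean of 9.02% in 2n-whole and 28.5% in 4n-whole.

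Cldn3, a claudin of the bile canaliculus, was listed at 0 counts in all 15 libraries, a level below 3 counts per library. It is a gene of 1 exon on chromosome 5 (135015068-135016326, plus strand), and 71.96% of its exon lies inside exons of Wbscr25, a gene of the opposite strand that had 0 to 46 counts per library. Whether the counting used the strand is not given in the sources used here, and without strand the reads of both genes cannot be told apart where they overlap. Of 32 protein-coding genes whose exons lie wholly inside exons of opposite-strand genes, 21 (65.6%) were at 0 in all libraries. This share was 8.75% of 21533 protein-coding genes and 13.3% of the 10360 whose exons no other gene overlaps. Cldn3, with 71.96% of its exon covered, is not among those 32 genes, and the reason for its 0 was not tested. The 0 of Cldn3 is not read as a level of its RNA. Of the other members, only Cldn12 (3.01% of its exon length) and Ocln (1.78%) overlap exons of an opposite-strand gene.

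Occludin, encoded by Ocln on chromosome 13 (100630334-100689535, minus strand), is a membrane protein of the tight junction strand. It had 44.7, 22.6, 17.2 and 33.0 CPM in mice 1 to 4 of 2n-whole and 33.5, 11.8, 17.5 and 25.2 CPM in 4n-whole. The 4n-bottom values were 36.4, 16.6, 15.36 and 31.6 CPM, and those of 4n-top 14.3, 18.2 and 23.7 CPM in mice 2, 3 and 4. Mouse 1 was highest in the 3 populations that include it, and all ranges overlapped. Ocln had a log2 fold change of -0.43 in 4n-whole against 2n-whole (SE 0.13, 95% interval -0.70 to -0.15), with lower values in 3 of 4 mice, and did not pass (adjusted p = 0.0602). Without mouse 3, the mouse that did not go down, it was -0.57 (adjusted p = 0.0096), as that omission enlarges the fall. Leaving out each mouse in turn gave -0.57 to -0.27, and the largest within-mouse fall was that of mouse 2 (-0.93). Over the 10 alternatives the adjusted p of Ocln ran from 0.0096 to 0.678. Without mouse 3, 5.53% of all genes were called in this comparison, against 3.47% with every mouse. For 4n-top against 2n-whole the log2 fold change of Ocln was -0.37 (95% interval -0.68 to -0.06, adjusted p = 0.324).

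Tjp1 encodes ZO-1, the scaffold that ties claudins and occludin to actin, and lies on chromosome 7 (64945898-65177529, minus strand). It ranged from 52.8 to 73.0 CPM over the 15 libraries. The log2 fold change of Tjp1 was -0.08 in 4n-whole against 2n-whole (95% interval -0.30 to 0.13) and -0.04 in 4n-top against 4n-bottom (-0.27 to 0.20), and it was not called in any comparison.

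The gap junctions of the hepatocyte are built from connexin 32 (Gjb1, X chromosome, 100419984-100429547, plus strand) and connexin 26 (Gjb2, chromosome 14, 57335919-57342240, minus strand). Gjb1 had 219.7 ± 24.1 CPM in 2n-whole (n = 4), 224 ± 22.2 in 4n-whole (n = 4), 227 ± 20.7 in 4n-bottom (n = 4) and 243 ± 8.55 in 4n-top (n = 3). Gjb2 had 332 ± 31.0, 326 ± 41.2, 329 ± 26.3 and 342 ± 41.2 CPM in the same order. Neither gene was called, and the ranges of all populations overlapped. The 95% interval of the log2 fold change in 4n-whole against 2n-whole was -0.14 to 0.20 for Gjb1 and -0.19 to 0.14 for Gjb2, both within the limit of 0.5 used for a call. Gjb1 was higher in 4n-top than in 2n-whole in 3 of 3 mice, by a log2 fold change of 0.21 (95% interval 0.02 to 0.39, adjusted p = 0.366). Gjb2 exceeded Gjb1 per kb in all 15 libraries, with ratios from 1.04 in 4n-whole of mouse 4 to 1.54 in 2n-whole of mouse 3.

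**Figure D4:**
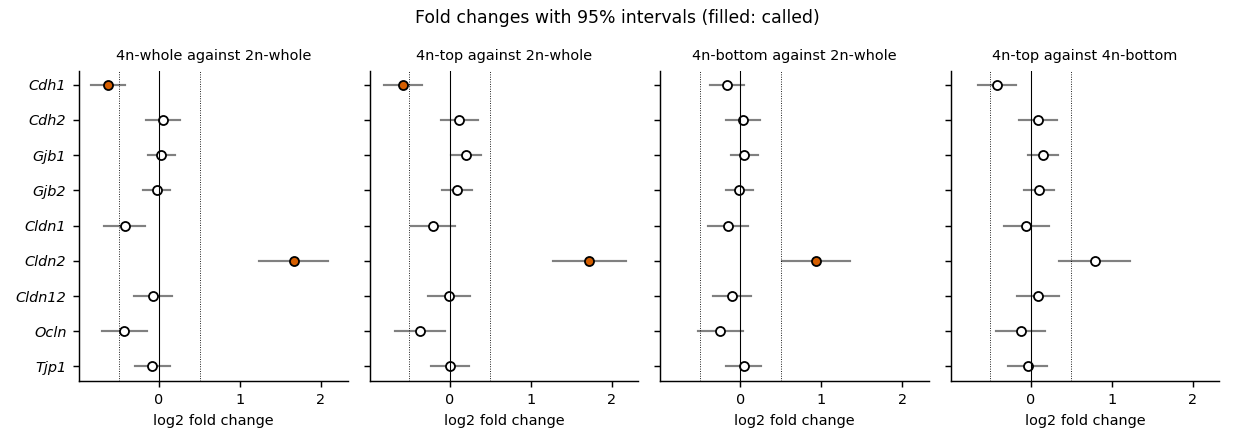
Log2 fold changes of the 9 tested genes in 4 comparisons (edgeR with the mouse as block), with 95% intervals as lines, filled points for called genes and dotted lines at -0.5 and 0.5. Cdh1 and Cldn2 were called in 4n-whole and in 4n-top against 2n-whole, Cldn2 alone in 4n-bottom against 2n-whole, and no gene in 4n-top against 4n-bottom.

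A gene was called at an adjusted p under 0.05 and a log2 fold change beyond 0.5 in either direction. In 4n-whole against 2n-whole, 2 of the 9 tested junction genes were called, where 3.47% of all 17488 tested genes were. The 1 called lower and the 1 called higher compare with 1.73% and 1.74% of all genes, and on the adjusted p alone, which adds Cldn1, 3 of 9 passed and 5.47% of all genes. Their median log2 fold change was -0.08, and that of all tested genes was -0.01. In 4n-bottom against 2n-whole, 1 of 9 was called (all genes 0.463%), and in 4n-top against 2n-whole 2 of 9 (all genes 0.961%). In 4n-top against 4n-bottom, edgeR called 0 of 9 (all genes 0.0114%), with Cdh1 and Cldn2 the 2 genes at an unadjusted p under 0.05 (all genes 2.79%). There, DESeq2 with the mouse block called 1 (all genes 7.64%) and DESeq2 after ComBat-seq called 0 (all genes 0.0433%). The DESeq2 shares are of 39304 genes, without the filter on low counts, and the edgeR shares are of 17488. In 4n-whole against 4n-bottom, edgeR also called 0 of 9 (all genes 0.00572%), with 3 at an unadjusted p under 0.05 (all genes 5.57%), and these DESeq2 fits called 1 (all genes 8.6%) and 0 (all genes 0.0763%). The log2 fold changes there were -0.47 for Cdh1 (adjusted p = 0.151), 0.72 for Cldn2 (adjusted p = 0.358) and -0.27 for Cldn1 (adjusted p = 0.860). In 4n-whole against 4n-top, edgeR called 0 of 9 (all genes 0%), with 0 at an unadjusted p under 0.05 and 0 called by either DESeq2 fit.

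Genes that mark the ends of the lobule were measured beside Cdh1, Cldn2, Cdh2 and Gjb2. In 4n-whole against 2n-whole, where Cdh1 and Cldn2 were called, the log2 fold changes of Cdh2 and Gjb2 were 0.05 and -0.03. The central vein gene Glul, which encodes glutamine synthetase, had a log2 fold change of 1.30 in 4n-whole against 2n-whole (adjusted p = 1.3e-06), and the pericentral gene Cyp2e1, of a cytochrome P450 that metabolises ethanol, 1.71 (adjusted p = 1.3e-06). The periportal gene Cyp2f2 had -0.73 (adjusted p = 7.7e-05), and Hal, of the first step of histidine breakdown, -0.26 (adjusted p = 0.0723). In 4n-bottom against 2n-whole, where Cldn2 was called and Cdh1 was not, Glul had 1.43 (adjusted p = 2.1e-06), Cyp2e1 0.91 (adjusted p = 0.0153), Cyp2f2 -0.27 (adjusted p = 0.364) and Hal -0.02 (adjusted p = 0.972). In 4n-top against 2n-whole, where both were called, Glul had 0.53 (adjusted p = 0.120), Cyp2e1 1.63 (adjusted p = 1.4e-05), Cyp2f2 -0.47 (adjusted p = 0.0571) and Hal -0.26 (adjusted p = 0.246). In 4n-top against 4n-bottom, Glul had -0.90 (adjusted p = 0.0499), Cyp2e1 0.72 (adjusted p = 0.907), Cyp2f2 -0.20 and Hal -0.25 (adjusted p = 1 for both), so that the estimate for Cldn2 (0.79) had the sign of Cyp2e1 and not of Glul there. The part of lobular position in the differences of Cdh1 and Cldn2 was not tested.

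Over the 15 libraries, with the mouse effect removed, the genes most like Cdh1 among 7371 well-expressed genes were Hsd17b13 (Pearson r = 0.978), Ctsc (0.976) and Acly (0.963). Those most like Cldn2 were Elovl3 (r = 0.979), Rgn (0.974) and Ang (0.973). In 4n-whole against 2n-whole, Ctsc had a log2 fold change of -0.88 and Rgn of 1.51, beside -0.63 for Cdh1 and 1.66 for Cldn2. These values describe likeness in shared libraries, and the population means are part of them.

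A list of 88 other junction genes placed the 10 in their pathway, and 51 of these passed the filter on low counts. By structure, 26 of 40 tight junction, 14 of 17 adherens junction, 7 of 11 desmosome and 4 of 20 gap junction genes were tested. In 4n-whole against 2n-whole, 1 rose and 1 fell, and 49 were not called. These 2 calls compare with 3.47% of all tested genes, a share close to that of the list. On the adjusted p alone, 2 of the 51 were higher and 4 were lower (all genes 5.47%). At an unadjusted p under 0.05 there were 22 of the 51 (all genes 20.4%), so these shares of the list were above those of all genes. The changes themselves were not larger, with a median absolute log2 fold change of 0.259 for the 51 and 0.296 for all tested genes. Of the 51, 25 had a positive and 26 a negative log2 fold change. The list was chosen with earlier results of these data known. The median log2 fold change of the 51 was -0.06, against -0.01 for all tested genes. The gene that fell was Cxadr, which encodes a receptor of the immunoglobulin family at the tight junction (log2 fold change -0.63, SE 0.11, adjusted p = 4.0e-04, lower in 4 of 4 mice). Its mean was 128 ± 32.6 CPM in 2n-whole and 83.3 ± 25.3 CPM in 4n-whole (n = 4 each), and 19.7% of its exon length overlaps opposite-strand genes. The gene that rose was Plekha7, a linker of the cadherin complex to microtubules (0.72, SE 0.17, adjusted p = 0.0116, higher in 4 of 4 mice), from 8.58 ± 1.31 to 14.2 ± 3.42 CPM. Both calls were lost without the mouse block. EdgeR called 0 of the 51 in each of the other comparisons. At an unadjusted p under 0.05 there were 0 between 4n-top and 4n-bottom (all genes 2.79%), 7 in 4n-bottom (all genes 10.2%) and 11 in 4n-top (all genes 11.3%) when set against the diploid cells. DESeq2 with the mouse block called 5, 6 and 10 in that order, where it called 7.64%, 9.84% and 11.3% of 39304 unfiltered genes. DESeq2 after ComBat-seq called 0, 1 and 6, where it called 0.0433%, 0.71% and 1.38% of the same number of genes.

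The most abundant genes of the list were not called in 4n-whole against 2n-whole. Among tight junction genes these were the cingulin relatives Cgnl1 (267 CPM over all libraries, log2 fold change 0.21) and Cgn (128 CPM, 0.28) and the polarity gene Pard3 (115 CPM), which passed the limit on p alone (0.40, adjusted p = 0.0077). Among adherens junction genes, Ctnna1, the catenin that links cadherins to actin, had 159 CPM and a log2 fold change of -0.18, Afdn had 128 CPM and 0.15, and Ctnnb1, which encodes beta-catenin, had 123 CPM and 0.04. In the desmosome, Dsp (254 CPM) had 0.03, Dsg2 (199 CPM) -0.27 and Perp (58.2 CPM) -0.41, of which Perp passed the limit on p alone (adjusted p = 0.0467). Dsc2 (-0.42, adjusted p = 0.0330) and Lsr (-0.33, adjusted p = 0.0486) also passed on p alone. Among the gap junction genes outside Gjb1 and Gjb2, levels were low, with means of 2.06 CPM for Gjc3, 0.480 CPM for Gja6 and 0.309 CPM for Gja1.

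**Figure D5:**
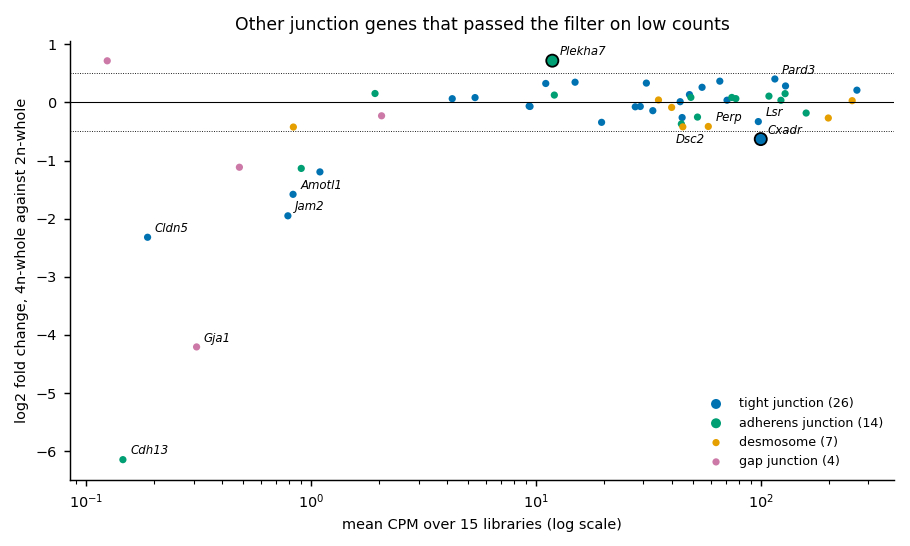
Log2 fold change in 4n-whole against 2n-whole (vertical axis, dotted lines at -0.5 and 0.5) and mean CPM over 15 libraries (horizontal axis, log scale) of the 51 other junction genes that were tested, coloured by structure. The called genes Cxadr (-0.63) and Plekha7 (0.72) are drawn large, and the genes with the lowest fold changes, such as Cdh13 and Gja1 (0.309 CPM), lie at the left edge, under 1 CPM.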

How the data were processed

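RNA-seq was made from sorted hepatocytes of individual mice. The deposited values are raw gene counts, which the authors made with STAR 2.7.11a and featureCounts (Subread) on GRCm39, per the submitters' processing notes, from libraries of a stranded SMART-Seq kit. The annotation, the strand setting and the treatment of mates and of multimapping reads are not given in the sources used here. Among counts from 1 to 10, 74.2% to 81.4% per library were even. No normalization had been applied.

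Differential expression was tested with the quasi-likelihood test of edgeR 4.0.16 in R 4.3.3, with TMM scaling, the default filter on low counts (minimum count 10, minimum total 15), and a model of all 15 libraries with terms for the population and, as replicate block, the mouse. Benjamini-Hochberg adjustment ran over 17488 genes, 95% intervals came from the same fit, and all tests were two-sided. The fit was also run on simulated counts. The changes put in were larger than that of Cdh1 and lay in well-counted genes, so smaller differences were not covered. The block follows the study, which treats the mouse as batch, and the subject number in the labels. Residuals of the 21 same-mouse pairs had a mean correlation of 0.158 (0.0845 to 0.227). Exon lengths, gene overlaps and promoter windows came from the GENCODE M39 annotation and the GRCm39 genome. Likeness was computed after limma 3.58.1 had removed the mouse effect from log2 CPM (prior count 2), among genes with a mean log2 CPM of at least 3.

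The genes named are the 10 members, the other junction genes called in any comparison, the 3 most abundant genes of each structure, the landmarks Glul, Cyp2e1, Cyp2f2 and Hal, the 3 genes most like each called member, and the most abundant markers of each cell type. Krt19, Epcam, Krt7, Dsc2, Lsr and Cdh13 were named after their values were seen. The members and lists were chosen with earlier results of these data known. Alternatives were a fit with no replicate block, DESeq2 1.42.0 with the block, DESeq2 on counts adjusted by ComBat-seq (sva 3.50.0), edgeR with DESeq2 size factors, with unfiltered counts or with just the libraries compared, calls by adjusted p alone, and the omission of each mouse in turn.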

Additional observations from a re-analysis of the deposited data

How the results depend on the processing

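Counts of the 9 junction genes called, in the order 4n-whole, 4n-bottom and 4n-top against 2n-whole, 4n-top against 4n-bottom and 4n-whole against 4n-bottom, were 2, 1, 2, 0 and 0. Without the replicate block they were 1, 0, 0, 0 and 0, and over all genes 40 were called in 4n-whole against 2n-whole in place of 607. DESeq2 with the replicate block and edgeR without the filter each called 1 in both 4n-top and 4n-whole against 4n-bottom. Over all genes that DESeq2 fit called 7.64% and 8.6% there, and edgeR without the filter 0.0636% and 0.114%. The compared populations alone gave 1 for 4n-top against 4n-bottom (all genes 0.0999%). Leaving out each mouse in turn gave ranges of 2 to 4, 0 to 1, 1 to 2, 0 to 2 and 0 to 1. The shares of all genes also moved, over 1.3% to 5.53%, 0.261% to 0.603%, 0.522% to 1.29%, 0% to 0.157% and 0% to 0.351%. Without mouse 2, Cldn2 was called in 4n-whole against 4n-bottom (0.83, adjusted p = 0.0045, all genes 0.157%). Without mouse 3, Cdh1 was called there (-0.53, adjusted p = 0.0231, all genes 0.351%). In both cases the mouse left out was the one with the smallest difference. Counts in 4n-whole against 4n-top were 0 under each alternative run.

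Of the other junction genes, 2 were called in 4n-whole against 2n-whole (all genes 3.47%). This became 0 without the replicate block (all genes 0.229%), 5 with ComBat-seq and DESeq2 (2.96%) and 9 with DESeq2 and the replicate block (11.7%). It was 1 with the compared populations only (2.06%) and 6 with no limit on the fold change (5.47%). Leaving out a mouse gave 1 to 3 (1.3% to 5.53%), with 1 without mouse 2 and 1 without mouse 4. In 4n-top against 2n-whole, 0 (all genes 0.961%) became 6 with ComBat-seq (1.38%) and 10 with DESeq2 and the replicate block (11.3%). It became 1 with DESeq2 size factors (0.966%), 1 with no filter (0.664%), 2 with the compared populations (1.96%) and 1 with no fold limit. Leaving out a mouse gave 0 to 2 (0.522% to 1.29%), with 2 without mouse 1 and 2 without mouse 2. DESeq2 with the replicate block gave 5 in 4n-top against 4n-bottom and 6 in 4n-bottom against 2n-whole, where ComBat-seq gave 1. That DESeq2 fit, run without the filter, called 4606 genes in all in 4n-whole against 2n-whole and 3003 in 4n-top against 4n-bottom. The cause was not tested.

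Of 540 recomputed log2 fold changes of single genes, 489 kept their direction and side of the threshold and 33 changed sign, none of them larger than 0.124 at first. Without the replicate block, Cldn2 (0.13), Ocln (0.24) and Cdh1 (0.063) turned in 4n-whole against 4n-top, and Tjp1 (-0.033) in 4n-top against 2n-whole. Tjp1 turned there also with ComBat-seq (-0.030), DESeq2 and the replicate block (-0.0174), DESeq2 size factors (-0.0172) and the compared populations (-0.045). Leaving out a mouse, the ranges that crossed 0 were, in 4n-whole against 2n-whole, -0.16 to 0.0052 for Tjp1 and -0.073 to 0.12 for Cdh2. In 4n-bottom against 2n-whole they were -0.0025 to 0.048 for Cdh2 and -0.063 to 0.016 for Gjb2. In 4n-top against 2n-whole they were -0.11 to 0.096 for Cldn12 and -0.13 to 0.14 for Tjp1. In 4n-top against 4n-bottom they were -0.21 to 0.10 for Cldn1, -0.048 to 0.16 for Cldn12, -0.28 to 0.0041 for Ocln, -0.15 to 0.029 for Tjp1 and -0.042 to 0.18 for Cdh2. In 4n-whole against 4n-bottom they were -0.092 to 0.18 for Cldn12, -0.073 to 0.11 for Cdh2, -0.045 to 0.033 for Gjb1 and -0.062 to 0.045 for Gjb2. In 4n-whole against 4n-top they were -0.19 to 0.17 for Cldn2, -0.20 to 0.043 for Cldn12, -0.14 to 0.13 for Cdh1 and -0.14 to 0.013 for Cdh2.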
